A study of Homo sapiens with 18 samples.

Results

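The genes described here are 40 protein-coding genes of ribosome biogenesis, chosen by name for roles in nucleolar assembly, rRNA processing and rRNA modification, many of them known MYC targets. The list was made with earlier results of these data known. All 40 were found among the 20056 protein-coding genes of the RefSeq annotation of GRCh38.p14, the assembly of hg38. RNA bound by MYC was mapped in U2OS cells, a human osteosarcoma line, by eCLIP (enhanced crosslinking and immunoprecipitation), in which ultraviolet light joins protein to RNA before the protein and its RNA fragments are precipitated. The cells lack endogenous MYC and carry a FLAG-tagged MYC under a doxycycline-inducible promoter. The alleles were MYC-3A, MYC-7A and wild-type MYC, and the residues changed in the mutants are not named in the labels. Doxycycline at 1 µg/mL for 24 h was set against PBS, and each allele under each of them had 2 precipitated libraries and 1 input, 18 libraries in all. The deposited values used here are 3 peak lists, 1 per allele, of the doxycycline-treated cells. They held 103 peaks for 3A, 88 for 7A and 2149 for wild type, with no values per replicate and an unknown sequencing depth. No value therefore has a replicate error, no test between alleles was possible, and intervals and limits cover counting error over genes or peaks. Peak lists of PBS-treated cells were not analysed here, and no uninduced background stands beside these counts.

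MYC is a transcription factor that binds DNA with its partner MAX at the E-box, and genes for making ribosomes are among its best known targets. Ribosome assembly starts in the nucleolus, where RNA polymerase I transcribes the rRNA precursor. Small nucleolar ribonucleoproteins (snoRNPs) modify that RNA, and assembly factors fold and cleave it into the rRNAs of the small and the large subunit. RNA peaks within the genes of these factors, introns included, were examined here, and the RNA levels of these genes were not measured in the files used.

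In the genes described here, the wild-type peaks near gene starts began inside the transcribed sequence, as did most of those in other protein-coding genes. The bases at the upstream edge are shown for the 6 start peaks of highest fold enrichment that have an entry in the RefSeq start table (GRCh38.p14). Each line gives bases 21 to 50 of the transcribed strand, 5′ to 3′, counted from 1 at the annotated start, and capitals mark the bases under the wild-type peak.
NOP16, chr5:176388549-176388578, minus strand: aggcagcgtgTTTGAGCTGCTGGTGCGGTG
NOP14, chr4:2963357-2963386, minus strand: gtcttagGGTAGCGCGCGCCTGTCTCTCTT
EBNA1BP2, chr1:43172241-43172270, minus strand: tggcgctgGAGCGATTCGGTGGCACGTGGA
NCL, chr2:231464435-231464464, minus strand: cttcgggtgtaCGTGCTCCGGGATCTTCAG
DKC1, chrX:154762884-154762913, plus strand: gcctgacgggACCAAGGCGGCGGGAGTCTG
NHP2, chr5:178153836-178153865, minus strand: GACCGCGTGGGCTCGCCTCCCTGGGACTAG
In these 6 genes the peak began between base 21 (NHP2) and base 32 (NCL). The EBNA1BP2 line is counted from the inner of its 2 annotated starts, and its stretch under the peak holds an E-box, CACGTG.

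No peak of either mutant met any of the 40 genes, whereas wild-type peaks met 30 of them. The count was 0 of 40 in the 3A list, where 0.359% of all protein-coding genes held a peak. It was also 0 of 40 in the 7A list, where 0.269% did. In the wild-type list it was 30 of 40 (75.0%, exact 95% binomial interval 58.8 to 87.3), where 6.78% of protein-coding genes did, and the genes held 62 peaks. Because the genes were listed with earlier results known, this share is no independent observation. The nearest 3A peak to any of the genes lay 18890 bp from NOP2, and the nearest 7A peak lay 190880 bp from NOP56. None of the 62 wild-type peaks was met by a mutant peak. That follows closely from the counts of 0 above. The share of all wild-type peaks met by a mutant peak is not given here, so this count is not read as a trait of these genes.

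**Figure D1:**
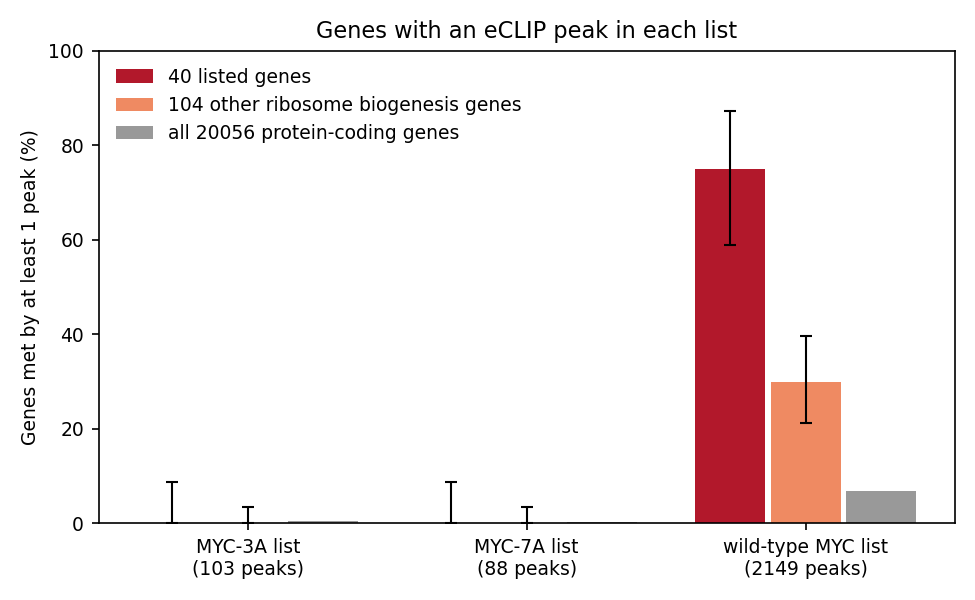
Percentage of genes met by at least 1 peak (vertical axis) in the MYC-3A, MYC-7A and wild-type lists, for the 40 genes, 104 other ribosome biogenesis genes and all protein-coding genes. Error bars are exact 95% binomial intervals over genes. Both mutant lists have no gene of either ribosome biogenesis set, while the wild-type bars stand at 75.0%, 29.8% and 6.78%.

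The mutant lists were too short to show that these genes were depleted from them. Their 0 of 103 3A peaks allow a share of up to 2.91%, and 0 of 88 7A peaks allow up to 3.41%. The wild-type share of 2.89% (62 of 2149 peaks) lies inside both limits. Applied to the lengths of the mutant lists, that share gives 2.97 peaks for 3A and 2.54 for 7A. Cut to its 103 peaks of smallest q, the wild-type list kept 4 peaks in 3 of the genes (3.88% of peaks, exact 95% interval 1.07 to 9.65). With 88 such peaks the same number remained (4.55%, exact 95% interval 1.25 to 11.2). The genes were NCL with 2 of the 4, BOP1 and EBNA1BP2. At those lengths 0.364% and 0.324% of protein-coding genes held a wild-type peak. The shares of 3.88% and 4.55% lie above the limits of 2.91% and 3.41%. They rest on 4 peaks, and their intervals reach below those limits.

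Among the core proteins of the box C/D snoRNP, which guides 2′-O-methylation of rRNA, all 3 genes held wild-type peaks. NOP56 had a peak in the body of the gene with a fold enrichment of 20.1 and another in the last 20% of its length with 10.4. The stronger one, on chromosome 20 from 2654384 to 2654611, ranked 87 of 2149. FBL, the gene of the methyltransferase fibrillarin, had 3 peaks, at 10.0 near its start and at 16.4 and 17.6 in its body. NOP58 had a single peak near its start, at 6.0, below the median of 8.11 of the wild-type list. The fold enrichments are the authors' values per peak and are used here only within the wild-type list.

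The H/ACA snoRNP, which guides pseudouridylation, had peaks in 3 of its 4 core genes. NHP2 had a peak of 15.0 near its start and one of 21.4 in its last 20%. DKC1, the gene of the pseudouridine synthase dyskerin, had the reverse order, with 16.3 near the start and 6.40 near the end. NOP10, a gene of 1418 bp, had 1 peak of 5.80 in its last 20%, and GAR1 had none. The 2 genes with a pair of peaks therefore differed in which end held the higher value.

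Of 3 genes of RNA-modifying enzymes, 2 held a peak each, at opposite ends. PUS7, a pseudouridine synthase that acts on tRNA and mRNA, had 14.3 with the summit 161 bp from its start. NAT10, the acetyltransferase of 18S rRNA and tRNA, had 9.33 at 99.2% of its length. NOP2, the gene of a cytosine methyltransferase of 28S rRNA, had none.

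Large-subunit factors included the highest value of all 40 genes. BOP1, a member of the PeBoW complex with PES1 and WDR12, had a peak on chromosome 8 from 144289067 to 144289297 with a fold enrichment of 27.9, rank 17 of the list. Its second peak, 108 bp from the start, had 12.8. PES1 had 1 peak of 10.3 at 99.3% of its length, and WDR12 had none.

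Among the 11 other large-subunit genes, 7 held 13 wild-type peaks, and each of the 7 had one near its start. EBNA1BP2, whose yeast counterpart acts in 25S rRNA maturation, had 3, at 22.1 near the start, 26.0 further in and 10.6 near the end. NOP16, a nucleolar protein of large-subunit assembly, had 22.4 near the start and 24.3 near the end, a similar value at both ends. RRP1B, a nucleolar protein that binds protein phosphatase 1, had 20.1 near the start and a close pair of 7.68 and 6.81 in the body. RRS1, whose product helps to place the 5S RNP, had 14.4. LAS1L, the endonuclease of the second internal transcribed spacer, showed the reverse of RRP1B, with 4.06 near the start and 12.9 near the end. BRIX1 and PPAN, which share the Brix domain of assembly factors, had 1 peak each, of 11.5 and 9.01, near their starts. GNL3, the gene of the GTPase nucleostemin, had none, nor had WDR74, NIP7 and MRTO4.

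Of 10 small-subunit genes 7 held 11 wild-type peaks. Their median fold enrichment was 9.06, against 12.9 over the 13 peaks just described, and this difference was not tested. Among further genes of the pathway the order was the other way, with medians of 9.94 for 12 peaks of small-subunit factors and 9.17 for 17 peaks of large-subunit factors. NOP14, a component of the small-subunit processome, stood highest, with 22.2 near its start on chromosome 4 from 2963101 to 2963379. RRP9, a protein of the U3 snoRNP, followed with 12.9 near its start. WDR43, another processome component, had 11.9 near the start and 10.0 near the end. RRP12, which helps small-subunit precursors to leave the nucleus, had 9.74 at 965 bp from its start and 9.06 near its end. NOC4L, a partner of NOP14, had 7.03 near its start. IMP4, another U3 snoRNP protein, had 4.87 and 7.08 in its body, and BYSL, the gene of bystin, had 4.11 and 4.66. UTP20, UTP4 and RCL1 had no peak.

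Nucleolar scaffold and rDNA transcription genes all held peaks, 22 in 6 genes, with a median fold enrichment of 8.04. NPM1 and TCOF1 had 6 each, the highest number among the 40 genes, and NCL had 5. NCL, the gene of nucleolin, had its highest value at the start with 16.6, and its other peaks had 7.63, 9.27, 10.8 and 13.7. Its start peak had a −log10 q of 162, rank 23 of the list and the highest of the 62. NOLC1, a chaperone of snoRNPs, had 21 near its start, then 17.9 and 6.25 along the gene. TCOF1, the gene of treacle, had 12.4 near its start and 11.5 near its end, with 4 weaker peaks from 3.21 to 6.85 between them. MYBBP1A, a nucleolar protein that binds the transcription factor MYB, had 12.2 near its start, and POLR1B, a core subunit gene of RNA polymerase I, had 10.9 at 513 bp.

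NPM1, the gene of nucleophosmin, had fold enrichments from 3.06 to 8.10 in its 6 peaks. None reached the list median of 8.11, and the lowest ranked 2089 of 2149. Its −log10 q values were not all low. Those of 31.4, 27.8 and 24.3 were above the list median of 17.8, and those of 11.6, 8.75 and 7.85 were below it. NPM1 has 50 annotated pseudogenes by symbol, so reads may be placed at a copy, and 1 of them, NPM1P27, held a wild-type peak of 4.69. PES1P2, a pseudogene of PES1, held a wild-type peak of 13.5. The part of such copies in the values of NPM1 and PES1 was not tested.

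**Figure D2:**
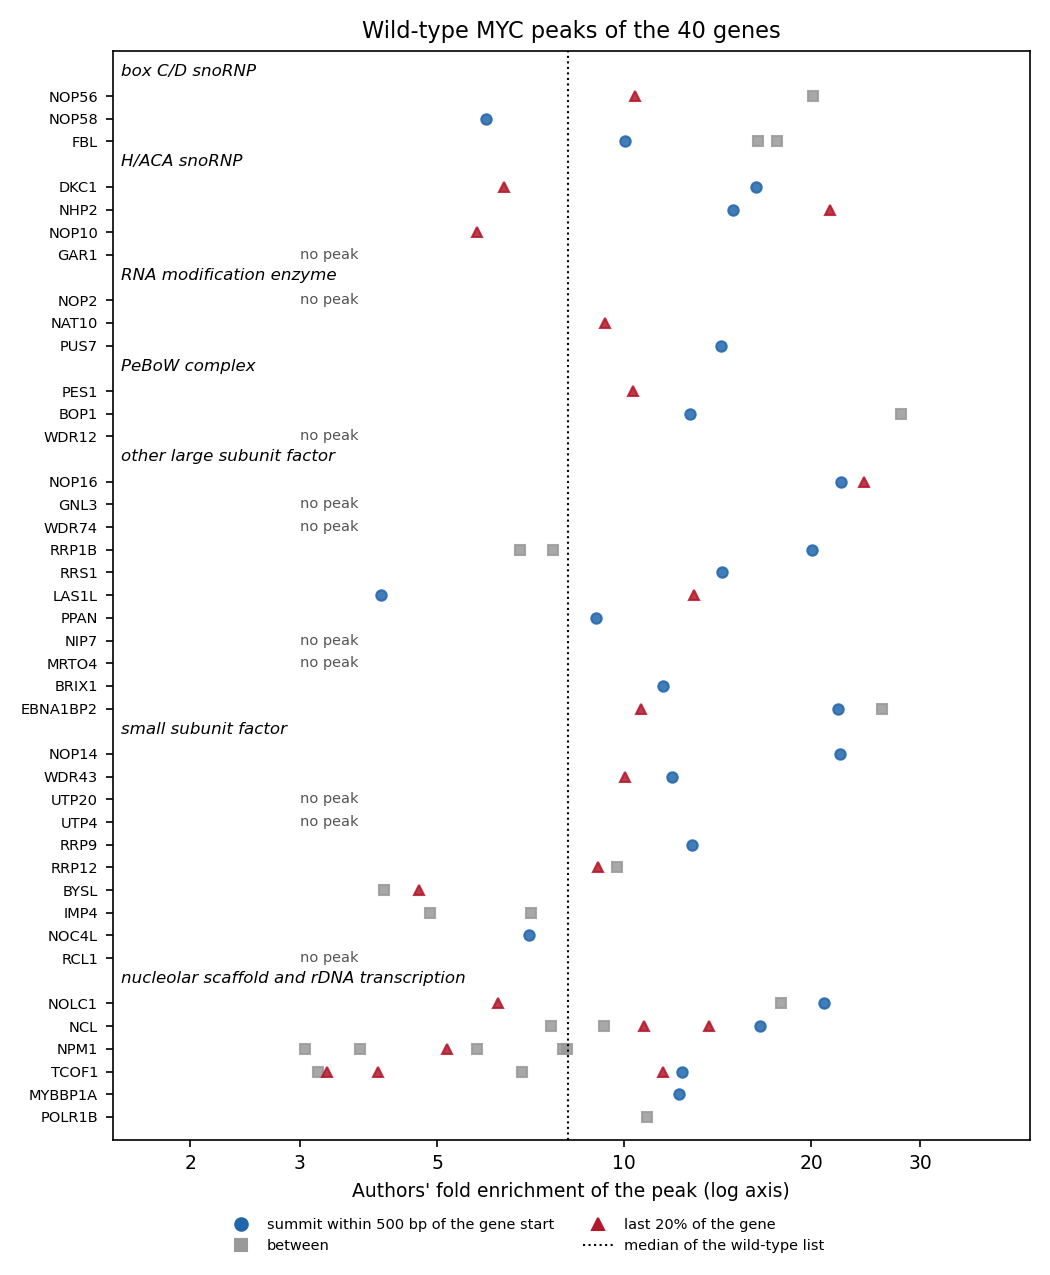
Authors' fold enrichment (log axis) of each of the 62 wild-type peaks in the 40 genes, ordered by function, with the position of the peak in the gene as marker. The dotted line is the median of the whole wild-type list, 8.11. BOP1, EBNA1BP2 and NOP16 reach furthest right, all peaks of NPM1 stay left of the line, and 10 genes have no peak.

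As a group the 62 peaks lay above the rest of the wild-type list. Their median fold enrichment was 10.4 (quartiles 6.82 and 14.8), and that of the 2087 other peaks was 8.09 (quartiles 5.76 and 11.4). The share at or above the list median was 62.9%, 39 of 62. Ranked by fold enrichment, 10 of the first 100 wild-type peaks belonged to 8 of these genes. Of the whole list of 2149 peaks, the 62 make up 2.89%. The median −log10 q was 22.6 in the 62 peaks and 17.8 in the others, and the median width was 190.5 bp against 163 bp. The peaks are not replicates, 17 genes gave 2 or more of them, and 8 pairs of neighbours in 6 genes were less than 500 bp apart, so no test was made. The genes were also listed with earlier results of these data known.

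Position in the gene was not used to choose the genes. A summit within 500 bp of the gene start was found for 21 of the 62 peaks (33.9%, exact 95% interval 22.3 to 47.0), each in a different gene. Another 19 peaks (30.6%) lay in the last 20% of the gene and 22 (35.5%) between. In the other protein-coding genes, 43.4% of 1889 wild-type peaks lay near the start, 20.0% in the last 20% and 36.6% between. The intervals of the 40 genes include 43.4% and 20.0%, the last with an interval of 19.6 to 43.7. These intervals count peaks as independent, although many genes gave several peaks, so they do not measure a difference from the other genes. Peaks near the start had a median fold enrichment of 12.9, those in the last 20% had 10.0 and those between had 7.83. NPM1 alone gave 5 of the 22 peaks between, with values from 3.06 to 8.10, all below the list median. The difference by position was not tested.

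Peaks at both ends were found in 9 of the 30 genes, namely DKC1, NHP2, NOP16, LAS1L, EBNA1BP2, WDR43, NOLC1, NCL and TCOF1. A start peak without any other was found in 9, a peak in the last 20% without one near the start in 7. Several genes have a listed start inside the annotated span, and in 3 of them a summit over 500 bp from the outer start lay within 500 bp of the inner one. BYSL has its listed start 12740 bp inside the span, and its first peak lay 170 bp from that start. NPM1 has a summit 72 bp from its inner start, and POLR1B has one 84 bp from its inner start. Measured from the nearest such start, 25 of the 62 summits (40.3%) lay within 500 bp, and 48.5% did in the other genes. This measure was chosen after the values were seen.

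**Figure D3:**
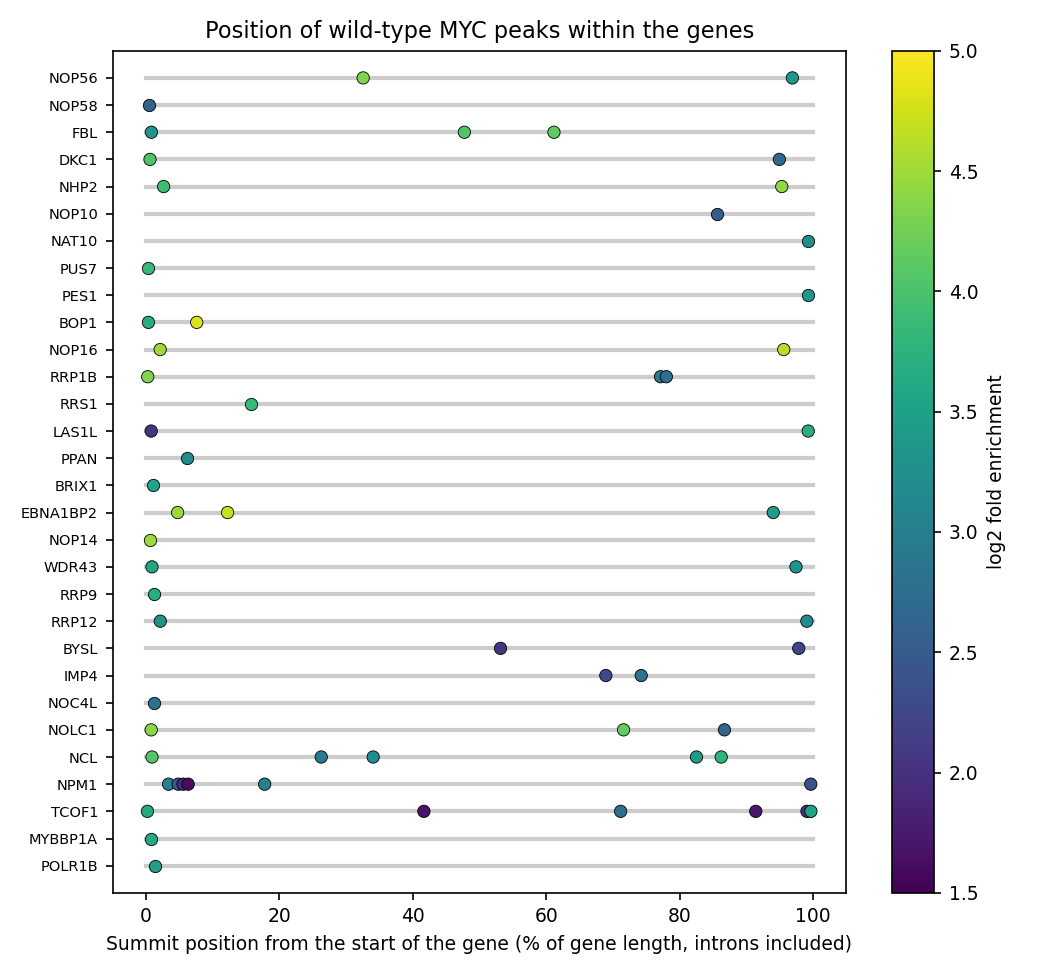
Position of each wild-type summit along the 30 genes that hold a peak, as a percentage of gene length from the start with introns included. Colour gives log2 of the authors' fold enrichment. Of the 62 summits, 21 lie within 500 bp of the start, 19 in the last 20% and 22 between. Those between include summits of NOP56, FBL, NCL, NOLC1, TCOF1, RRP1B, IMP4 and BYSL. They also include 5 of NPM1, all in the first 20% of its length.

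Summits near gene starts fell into a narrow band. Among the 21 start peaks the median distance was 108 bp (quartiles 97 and 161), and 17 (81.0%) lay from 80 to 180 bp. In 820 start peaks of other protein-coding genes the median was 138.5 bp (quartiles 103 and 221), and 61.0% lay in that band. None of the 21 peaks covered the annotated start itself, and only 20 of the 820 others did. The upstream edge of the peak stood at a median of 34 bp inside the gene, against 65 bp in the others. The band was chosen after the values were seen, and the gene start is that of the longest annotated span.

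**Figure D4:**
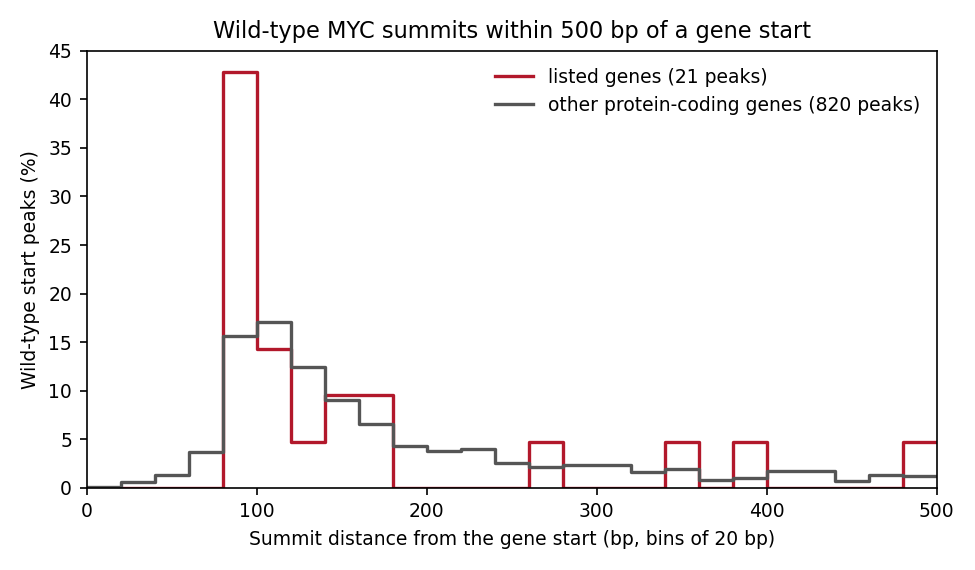
Distribution of summit distance from the gene start (horizontal axis, bins of 20 bp) as a percentage of start peaks, for 21 wild-type peaks of the ribosome biogenesis genes and 820 of other protein-coding genes. Both rise from 80 bp, and the 21 peaks are most frequent from 80 to 100 bp.

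All 44 peaks in genes with a strand in the start table lay on the strand of the gene. Another annotated gene overlapped 7 of the 62 peaks. The shares over all wild-type peaks are not given here, so neither count is read as a trait of these genes. The neighbours ARL10 at NOP16 (both peaks), RMND5B at NHP2 and IDH3B at NOP56 run on the opposite strand to the peak. TTC23L at BRIX1 runs on the same strand, so the peak cannot be assigned to 1 of the genes. PPAN-P2RY11 at PPAN and LOC102724687 at RRS1 have no strand in the table.

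The snoRNA genes nested in these genes were not met by any peak. The share met in other host genes is not given here, so this is not read as a trait of these genes. RefSeq places 25 snoRNA genes within 8 of the 40 genes, and 19 of them lie in 6 genes that hold wild-type peaks. The nearest was SNORD110 in NOP56, 97 bp from the peak of 20.1. In NCL, SNORA75 lay 185 bp and SNORD82 214 bp from a peak. GNL3, which holds 5 snoRNA genes, had no peak.

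The E-box CACGTG, which reads the same on both strands, was common at the starts of the 40 genes. Start windows of 300 bases, 250 before and 50 after each annotated start, were in the RefSeq table for 33 of the genes, and 19 of these (57.6%) held the motif in at least 1 window. The entries not found were NOP58, BOP1, RRP1B, RRS1, RRP12, NOLC1 and TCOF1. By window, 20 of 41 (48.8%) held it, against 8.34% of 22199 windows of all protein-coding genes. Many of the listed genes are known MYC targets, so this share is no independent observation. The GC content of the windows was 62.9%, and 60.9% over all protein-coding genes.

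Sequences around the motif are shown for genes in which it lies within 50 bases of the outermost gene start and a wild-type peak lies near that start. Each line gives 30 bases of the transcribed strand with the E-box in capitals.
FBL, chr19:39846356-39846385, minus strand: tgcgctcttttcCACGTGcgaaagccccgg
NOP14, chr4:2963374-2963403, minus strand: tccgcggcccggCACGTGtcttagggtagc
MYBBP1A, chr17:4555340-4555369, minus strand: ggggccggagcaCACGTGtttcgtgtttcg
PUS7, chr7:105522226-105522255, minus strand: gtcgctgcgccgCACGTGtgcgagcccggc
RRP9, chr3:51941892-51941921, minus strand: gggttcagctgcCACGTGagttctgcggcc
WDR43, chr2:28894658-28894687, plus strand: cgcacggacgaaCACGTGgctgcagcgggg
The motif began at base 7 in FBL, 16 in NOP14, 28 in MYBBP1A, 29 in PUS7, 4 in WDR43 and 5 bases before the start in RRP9. The RNA peak began downstream of it, at base 18 in FBL, 28 in NOP14, 41 in MYBBP1A, 84 in PUS7, 35 in WDR43 and 29 in RRP9. Motifs within 50 bases of the start were picked here, and start peaks mostly begin inside the gene. The order is therefore partly set by that choice, and it was not compared with other genes.

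All 19 genes with the motif had it within 50 bases of a start. Of their 22 motifs, 19 (86.4%) did, against 765 of 2077 (36.8%) in the windows of all protein-coding genes. Counting the 250 bases before the start alone, 6 of the 33 genes (18.2%) held it, against 9.73% of 15843 protein-coding genes. Among the 33 genes with a window, the motif was found in 12 of 23 genes with a wild-type peak (52.2%) and in 7 of 10 without one. The 7 genes with no entry all hold wild-type peaks, so the first of these shares leaves them out. In the other protein-coding genes the shares were 15.9% of 1041 genes with a wild-type peak on their strand and 10.4% of 14769 without.

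**Figure D5:**
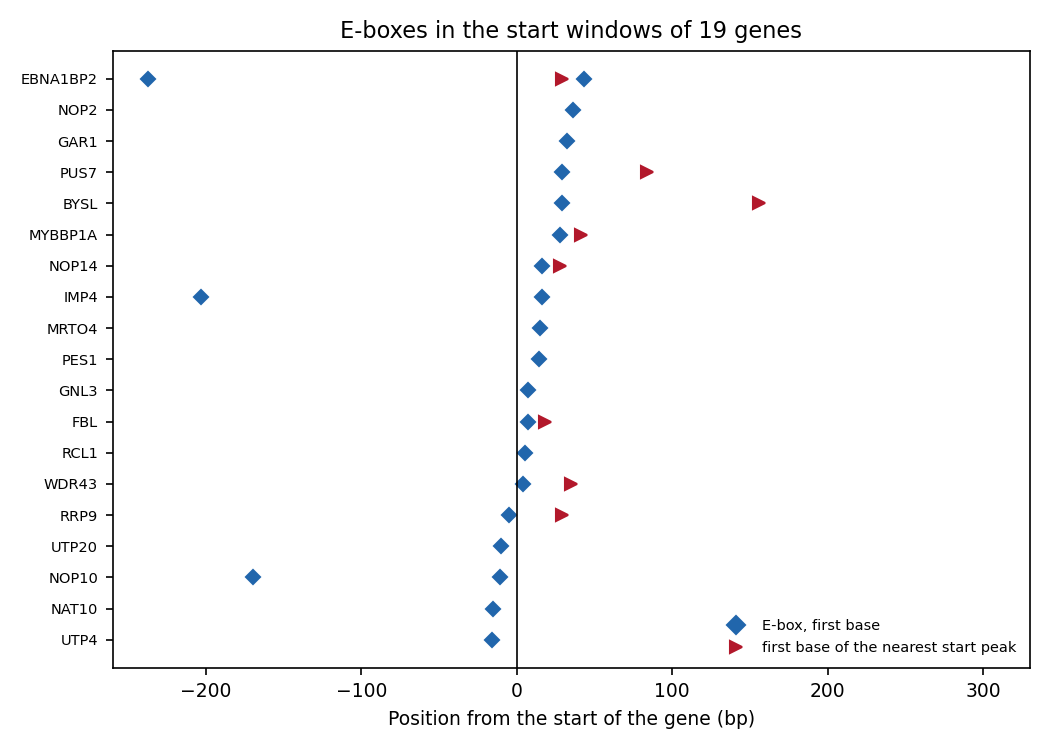
Position of each E-box and of the upstream edge of the nearest wild-type start peak, in bp from the annotated start of its window, for the 19 genes that hold the motif. The motifs cluster around the start, and the peak edges lie to their right in every gene with an edge shown except EBNA1BP2, where the motif at base 43 lies inside the peak that begins at base 29.

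Other genes of the same pathway were examined in the same way, and their list too was made with earlier results known. Of 104 further genes of RNA polymerase I, subunit assembly and snoRNP assembly, 0 held a 3A peak, 0 a 7A peak and 31 (29.8%, exact 95% interval 21.2 to 39.6) a wild-type peak, against 6.78% of protein-coding genes in the wild-type list. They comprised 6 of 13 genes of RNA polymerase I and its factors, 11 of 43 small-subunit factors, 11 of 38 large-subunit factors and 3 of 10 snoRNP genes. The highest fold enrichments were those of RSL1D1 (22.0), RUVBL2 (21.9), SNU13 (19.9) and RUVBL1 (19.9). PDCD11 (17.9), POLR1E (17.8), CEBPZ (17.7) and RRP36 (14.7) followed. SNU13 is the fourth core protein of the box C/D snoRNP, and RUVBL1 and RUVBL2 are helicases that help to assemble it. The peak at POLR1C lay on the strand opposite to that gene, inside XPO5. The median fold enrichment of the 41 peaks was 9.84, against 10.4 in the 62 peaks of the 40 genes.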

How the data were processed

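Per the labels' protocols, RNA crosslinked to FLAG-tagged MYC was precipitated from U2OS cells and sequenced. MACS2, cutadapt and BWA were used with hg38, per the submitters' processing notes. The sources used here name no versions, settings or control, and do not say if replicates were pooled. The 3 deposited narrowPeak lists give each peak a fold enrichment (a ratio), a −log10 q value, computed by the authors, a strand and a summit. The lowest −log10 q was 2.34 in 3A, 2.90 in 7A and 2.04 in wild type, and values were not compared between lists. Positions were made 1-based. A peak met a gene when it shared at least 1 bp with its RefSeq span, which includes introns. No exons were used, so exon, intron and UTR positions are not given. Strands and start sequences came from the RefSeq start table, and where a gene had no entry the strand of the peak was used. The members and lists were chosen with earlier results of these data known. Every gene was described, with full values for those of the 10 highest peaks or of 2 or more peaks, and pathway genes were named for the 8 highest values. The overlap code was tested on simulated data. Alternatives covered the overlap rule, strand, host gene, cutoffs and start distance. Intervals are exact (Clopper-Pearson, 95%), and limits for a count of 0 use 3 counts. Tables were computed in pandas 2.3.3 and SciPy 1.17.1 under Python 3.11.15, and drawn with Matplotlib 3.10.9.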

Additional observations from a re-analysis of the deposited data

How the results depend on the processing

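Of 52 alternative values for 9 results, 44 stayed within 1.5 times of a count or within the interval of a share or median. No setting gave a mutant peak in the genes. The wild-type count stayed at 30 except for 24 with fold enrichment at or above the list median and 3 with as many peaks of highest −log10 q as either mutant list holds, where fewer peaks are used by construction. At those 2 lengths the pathway count was 0, and 75.0% of the 4 remaining peaks lay near a start. The strongest peak of each gene had a median of 12.6. The E-box count was 6 before the start alone. No paired analysis was possible because the lists carry no values per replicate, so no replicate could be left out either. Chosen after seeing the data were the nearest listed start (40.3% of peaks near a start) and the merging of neighbouring peaks (37.0%). Depth is unknown, and 103 and 88 peaks limit every statement on the mutants.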

Other observations

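The 30 genes with a peak had a median length of 15653.5 bp and the 10 without had 10324.5 bp. Both groups contain short and long genes, such as NOP10 with 1418 bp and PUS7 with 65771 bp among those with a peak, and NIP7 with 3335 bp and UTP20 with 106514 bp among those without a peak.

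In the other genes of the pathway, 21 of 40 wild-type peaks on the gene's strand (52.5%, exact 95% interval 36.1 to 68.5) lay within 500 bp of the start. Their median distance was 131 bp. The E-box was found in the start windows of 23 of 92 of these genes (25.0%).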
